A study of Mus musculus with 12 samples.

Results

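The clustered protocadherins are adhesion molecules encoded by 3 neighbouring gene clusters, alpha, beta and gamma, on mouse chromosome 18. They were taken here by symbol (Pcdha, Pcdhb and Pcdhg followed by a member number or, for the alpha and gamma clusters, by a C-type name) and came to 58 of the 57180 genes listed, with 14 in the alpha, 22 in the beta and 22 in the gamma cluster. In the alpha and gamma clusters each gene has a variable first exon with its own promoter, which is spliced to constant exons shared by the whole cluster, whereas most beta genes consist of a single exon. Neurons choose a few promoters each, a choice linked to DNA methylation, the insulator protein CTCF and cohesin, and the resulting mixture of proteins on the cell surface lets a neuron tell its own branches from those of others. The C-type genes Pcdhac1, Pcdhac2, Pcdhgc3, Pcdhgc4 and Pcdhgc5 are expressed in a less random way.

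RNA of C57BL/6 mouse embryonic stem (ES) cells was sequenced in 12 libraries, 3 for each of 4 groups. MP8 cells lacked Mphosph8, which encodes the chromodomain protein MPP8, Tas cells lacked Tasor, which encodes the scaffold TASOR, Pph cells lacked Pphln1, which encodes the RNA-binding protein periphilin, and WT cells were wild type. These 3 proteins form the HUSH complex, a chromatin complex that keeps retroelements and some genes silent by way of the H3K9 methylation mark. The comparisons asked how each loss altered protocadherin transcripts. The labels give no clone, culture or other treatment, so each p-value reflects the scatter among the libraries of a group alone, and that scatter may be technical.

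Library totals ranged from 17918770 to 21962079 estimated counts, and 16840 genes passed the filter on low counts. The transcript of the lost gene averaged 0.307 CPM (counts over the TMM-scaled library size) in MP8 cells against 113 CPM in WT cells for Mphosph8, 31.9 CPM in Tas cells against 126 CPM in WT cells for Tasor, and 21.3 CPM in Pph cells against 68.5 CPM in WT cells for Pphln1. Of 10 ES cell markers, all were detected in each group; 2 rose and 7 fell in MP8, 2 rose and 5 fell in Tas, and 10 of the 10 fell in Pph, with median log2 fold changes of -0.31, -0.09 and -0.37. Their summed level was 3910 to 3948 CPM in MP8, 4194 to 4203 CPM in Tas, 3384 to 3489 CPM in Pph and 4305 to 4506 CPM in WT libraries. For comparison, of all tested genes 30.0% rose and 32.2% fell in MP8, 26.2% and 25.5% in Tas, and 30.6% and 25.7% in Pph.

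Summed over its members, each cluster was higher in all 3 null groups than in WT cells, without overlap between libraries. The alpha sum averaged 13.6 ± 1.14 CPM in MP8, 11.4 ± 0.796 CPM in Tas and 7.78 ± 0.574 CPM in Pph cells, against 2.63 ± 0.972 CPM in WT cells (SD, n = 3 each). The beta sum averaged 5.03 ± 0.505 CPM in MP8, 4.70 ± 0.295 CPM in Tas and 7.35 ± 0.74 CPM in Pph cells, against 3.80 ± 0.202 CPM in WT cells. The gamma sum averaged 149.8 ± 3.41 CPM in MP8, 105 ± 1.45 CPM in Tas and 129 ± 0.318 CPM in Pph cells, against 89.5 ± 0.823 CPM in WT cells. The order of the null groups therefore differed between clusters, with MP8 highest for alpha and gamma and Pph highest for beta. In the beta cluster MP8 and Tas libraries overlapped, whereas in the alpha cluster Tas lay above Pph and in the gamma cluster Pph lay above Tas, both without overlap. In a bulk sample, fewer cells with a transcript and less transcript per cell cannot be told apart.

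**Figure D1:**
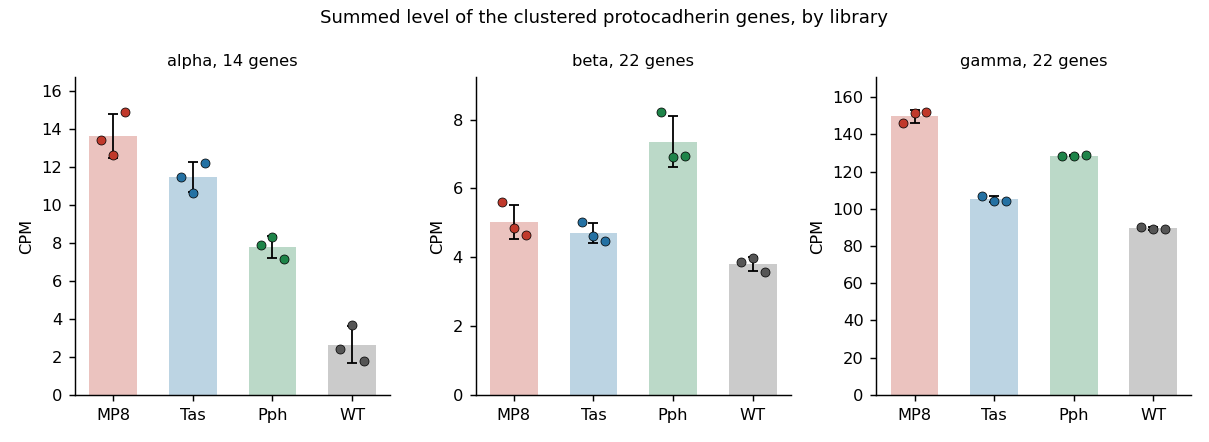
Summed CPM of the alpha, beta and gamma protocadherin genes (vertical axes, from 0) in the MP8, Tas, Pph and WT groups. Points are libraries, bars are means and whiskers are SD of 3 libraries. The null libraries lie above the WT libraries in each panel, and the gamma sums of about 89.0 to 152 CPM exceed those of the other clusters.

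On the log2 scale the ratio of group means was 2.37 in MP8, 2.12 in Tas and 1.56 in Pph for the alpha cluster, 0.40, 0.31 and 0.95 in the same order for the beta cluster, and 0.74, 0.23 and 0.52 for the gamma cluster, each over WT. The alpha ratios rest on small counts, 38.0 to 74.5 in the WT libraries. The beta sums also rest on few reads, 137 to 151 counts in Pph libraries against 76 to 84 counts in WT libraries. No test was made on the sums. The gamma genes held most of the counts of the 3 clusters, 88.9% ± 0.663 in MP8, 86.7% ± 0.525 in Tas and 89.5% ± 0.629 in Pph cells, against 93.3% ± 1.13 in WT cells.

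Of the 58 genes, 31 passed the filter on low counts: 3 alpha genes, 6 beta genes and all 22 gamma genes. The 27 others were 11 alpha genes, with no more than 11.6 counts in any library, and 16 beta genes, with no more than 11.1. Pcdha8, Pcdha9 and Pcdhb12 had 0 counts in all 12 libraries, which allows up to 3 counts in each. The filter keeps a gene that is high enough in the libraries of a single group. A gene low in WT can therefore pass through the groups where it is high, as Pcdha6 did with a mean of 7.67 counts in WT. Calls of such genes as higher are not independent of the filter. Reads of the alpha and gamma genes are partly ambiguous, because 48.6% to 54.9% of the length of an alpha gene and 41.7% to 45.9% of a gamma gene is shared constant sequence in the GENCODE M21 annotation. The estimated counts show this sharing. They were not whole numbers for 94.0% of the nonzero alpha values and 98.5% of the nonzero gamma values, but for 2.07% of the beta values. Single alpha and gamma values therefore depend on how the authors' estimation split these reads.

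In MP8 cells 17 of the 31 tested genes rose and 0 fell (edgeR quasi-likelihood test, Benjamini-Hochberg adjusted p under 0.05). Among all tested genes 30.0% rose and 32.2% fell in the same comparison. The genes that rose were 2 alpha and 15 gamma genes, and none of the 6 tested beta genes was called. At an unadjusted p under 0.05, edgeR had 0 of the 31 lower and 0 of the 6 beta genes either way, and DESeq2 also called 0 of either, while leaving out MP8 replicate 1 gave 1 lower call, Pcdha4. In Tas cells 10 rose and 3 fell, where 26.2% of all tested genes rose and 25.5% fell. In Pph cells 19 rose and 2 fell, where 30.6% of all tested genes rose and 25.7% fell. The median log2 fold change over the tested members was 0.62 in MP8, 0.28 in Tas and 0.89 in Pph cells, beside medians of -0.02, -0.01 and 0.04 over all tested genes. Altogether 24 of the 31 rose in at least 1 null group and 8 rose in all 3, namely Pcdha6, Pcdhga1, Pcdhga3, Pcdhga4, Pcdhga11, Pcdhgb4, Pcdhgb5 and Pcdhgb8. The matching shares of all tested genes, over at least 1 or all 3 null groups, were not computed. These joint counts therefore stand without a background.

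**Figure D2:**
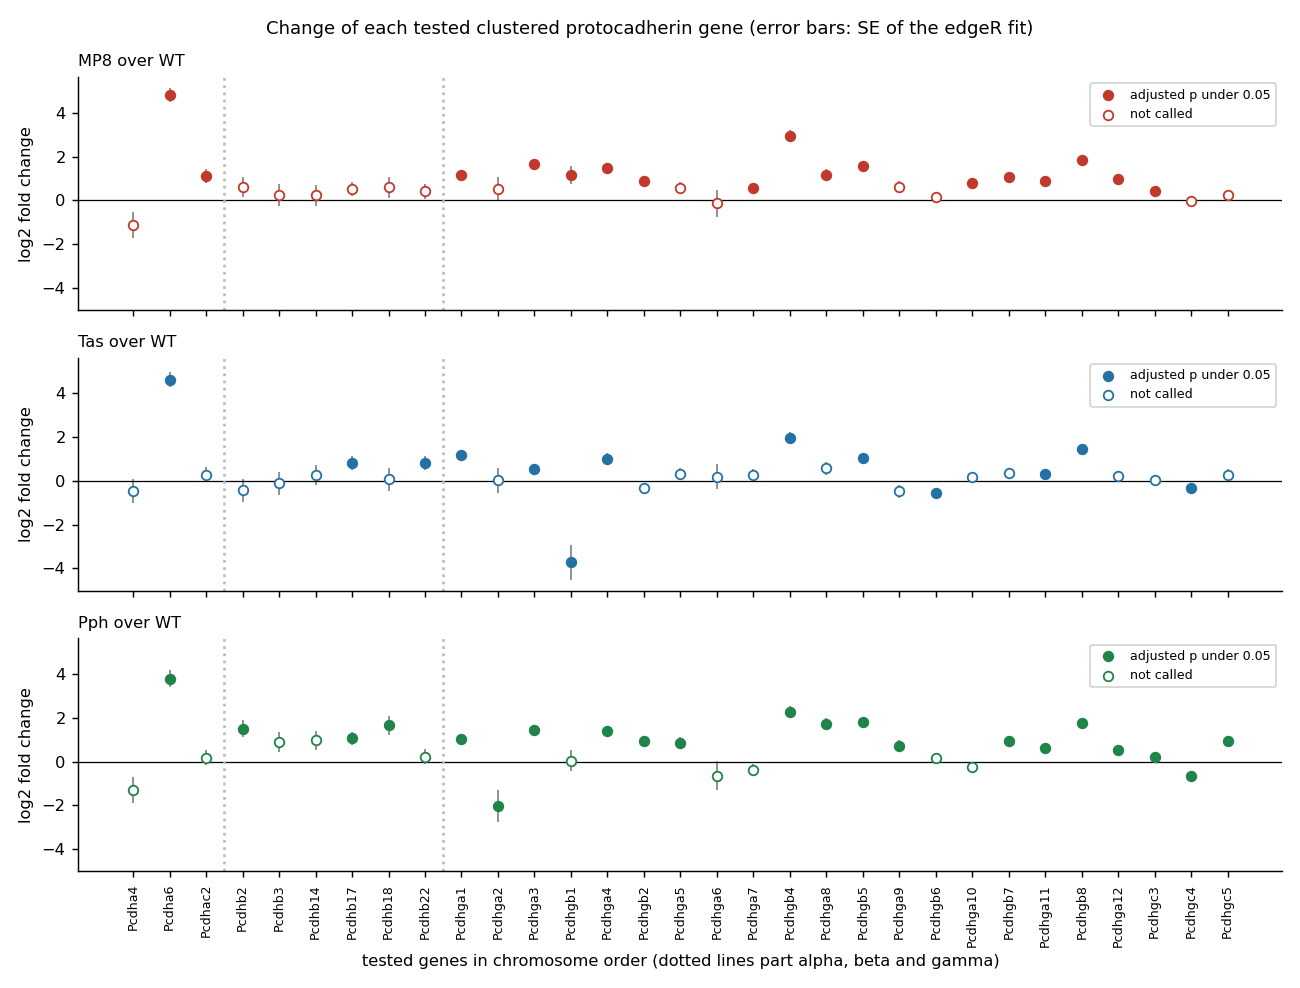
Log2 fold change over WT (vertical axes) of the 31 tested genes in their order on the chromosome, for MP8, Tas and Pph. Filled points passed an adjusted p of 0.05, open points did not, and bars are the SE of the fit. Pcdha6 has the highest point in each panel at 4.82, 4.63 and 3.80, and the 3 C-type gamma genes at the right end lie between -0.67 and 0.93.

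Pcdha6 (ENSMUSG00000103707), an alpha gene of the variable type, had the largest rise in each null group. Its estimated counts were 206, 182 and 223 in the MP8 libraries, 173, 176 and 197 in the Tas libraries and 88.0, 118 and 93.0 in the Pph libraries, against 7.48, 15.5 and 0 in the WT libraries. No null library overlapped WT, and the Pph libraries lay below those of MP8 and Tas. The log2 fold change was 4.82 ± 0.33 in MP8 (edgeR adjusted p = 6.89e-09), 4.63 ± 0.33 in Tas (2.11e-08) and 3.80 ± 0.37 in Pph (5.20e-07). It was higher in MP8 and in Tas than in Pph, by 1.02 ± 0.20 and 0.84 ± 0.21 (adjusted p = 0.000597 and 0.00315). WT replicate 2 held most of the WT counts, and without it the fold changes were 5.96 in MP8, 5.77 in Tas and 4.93 in Pph.

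Pcdha6 made up most of the alpha sum in the null groups. Its share was 77.0% ± 2.73 in MP8, 80.3% ± 1.74 in Tas and 66.0% ± 5.29 in Pph cells, against 11.7% ± 10.7 in WT cells. The other 13 alpha genes, a sum chosen after the values were seen, averaged 3.16 ± 0.643 CPM in MP8, 2.26 ± 0.343 CPM in Tas and 2.64 ± 0.399 CPM in Pph cells, against 2.26 ± 0.593 CPM in WT cells, and each null group overlapped WT. The alpha sum thus lay above WT through 1 listed gene. The deposited TPM values, transcript levels that take length into account, gave Pcdha6 22.2 TPM in MP8, 18.4 TPM in Tas and 11.2 TPM in Pph cells, against 0.743 TPM in WT cells. Set beside its counts, that TPM corresponds to a transcript of about 709 bases (702 to 728 over 10 libraries), 13.2% of the listed length of 5367 bases. The shortest of its 3 transcripts in GENCODE M21 has 4319 bases. The TPM of Pcdha6 therefore cannot be read as the level of the full-length alpha transcript. Which transcript its counts come from was not tested. Their rise, and that of the alpha sum, is therefore not shown to be of the full-length transcript.

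Among the other tested alpha genes, Pcdhac2, a C-type gene, rose in MP8 cells. It stood at 1.91 ± 0.448 CPM in MP8, 1.08 ± 0.279 CPM in Tas and 1.02 ± 0.394 CPM in Pph cells, against 0.904 ± 0.393 CPM in WT cells, with a log2 fold change of 1.10 ± 0.31 in MP8 (edgeR adjusted p = 0.00335). Pcdhac1, the other alpha C-type gene, was not tested and had at most 3.65 counts in a library. Pcdha4 had 12.3, 2.86 and 1.11 counts in the MP8 libraries, 4, 5.63 and 15.9 in the Tas libraries and 4.48, 7.55 and 2.48 in the Pph libraries, against 13.2, 10.3 and 15.1 in the WT libraries. It was not called against WT, although it was called lower in MP8 (-2.46) and in Pph (-1.30) without MP8 replicate 1, and in Pph (-1.89) without Pph replicate 2.

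The tables also list Gm37013 (ENSMUSG00000103458), a gene model that is not a member by symbol but overlaps 2 of the clusters, and it was singled out after its values were seen. In GENCODE M21, which names this identifier Gm42416, its single transcript of 2856 bases consists of 2410 bases shared with Pcdha4 and 446 bases shared with the gamma genes. It had 1139, 1205 and 1208 counts in the MP8 libraries, 935, 958 and 1034 in the Tas libraries and 644, 605 and 642 in the Pph libraries, against 67.8, 68.2 and 33.6 in the WT libraries. The 4 groups did not overlap. Its log2 fold change over WT was 4.50 ± 0.13 in MP8, 4.19 ± 0.14 in Tas and 3.59 ± 0.14 in Pph (edgeR adjusted p of 1.27e-13, 6.41e-13 and 9.21e-12). The order of means, MP8 then Tas then Pph, was also that of Pcdha6 and of the alpha sum, most of which was Pcdha6 in the null groups. For Pcdha6, MP8 over Tas was not called (log2 fold change 0.19 ± 0.19, edgeR adjusted p = 0.422).

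Gm37013 held more counts than the 14 alpha genes together in every null library, so the size of the alpha result depends on where its reads are placed. In WT it held more in replicate 1 and fewer in replicates 2 and 3. With its counts added to the alpha sum, an alternative chosen after the data were seen, the log2 ratio over WT was 3.81 in MP8, 3.51 in Tas and 2.92 in Pph. Added to Pcdha4, it gave 61.4 ± 4.50 CPM in MP8, 49.7 ± 2.11 CPM in Tas and 32.9 ± 2.30 CPM in Pph cells, against 3.30 ± 0.881 CPM in WT cells. Added to the gamma sum, it gave log2 ratios of 1.19, 0.74 and 0.81 in the same order of null groups, and brought Tas to 155 ± 3.08 CPM, near Pph at 161 ± 2.56 CPM. Whether these reads belong to a joined alpha and gamma transcript or to members of either cluster was not tested. Its counts and TPM corresponded to lengths between 1147 and 2914 bases, so in some libraries the estimate did not follow the listed model.

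**Figure D3:**
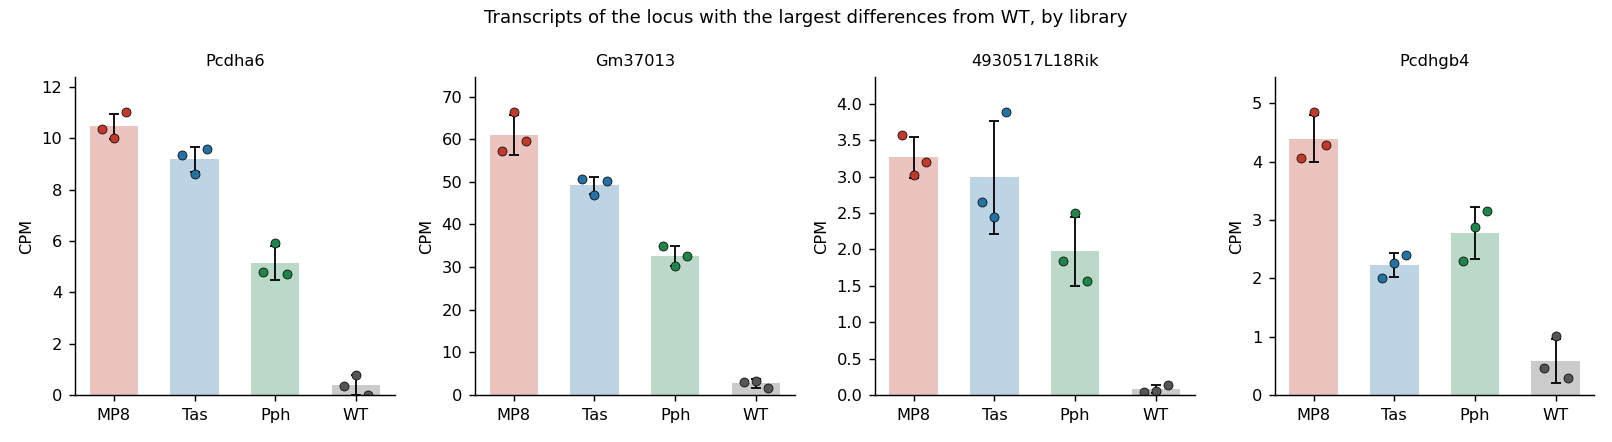
CPM (vertical axes, from 0) of Pcdha6, Gm37013, the noncoding transcript 4930517L18Rik and Pcdhgb4 in the MP8, Tas, Pph and WT groups. Points are libraries, bars are means and whiskers are SD of 3 libraries, and in each panel the null libraries lie above the WT libraries.

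Of 5 noncoding models of the region that passed the filter on low counts, 3 rose in each null group, a set also chosen after values were seen. One of these, 4930517L18Rik, passed through its null libraries alone, so this count is not independent of the filter. Among all tested genes 30.0% rose in MP8, 26.2% in Tas and 30.6% in Pph. BC037039 and Gm38182 were not called against WT, with log2 fold changes of 0.39, 0.24 and 0.36 for BC037039 and 0.45, 0.05 and -0.68 for Gm38182 in MP8, Tas and Pph. 4930517L18Rik, a long intergenic noncoding RNA between the beta and gamma clusters, had 71, 55 and 65 counts in the MP8 libraries, 49, 50 and 80 in the Tas libraries and 34, 50 and 31 in the Pph libraries, against 1, 1 and 3 in the WT libraries. With 5 WT counts in all, the ratio of summed CPM was 42.5 in MP8 (95% exact counting interval 17.9 to 132), 37.6 in Tas (15.8 to 117) and 25.8 in Pph (10.8 to 81.0). 3222401L13Rik, which starts before the first gamma gene, rose by less, with log2 fold changes of 1.08 ± 0.16 in MP8, 0.51 ± 0.17 in Tas and 0.59 ± 0.16 in Pph. Gm26672, which lies on the opposite strand and shares 2784 bases with gamma genes, rose by 2.82 ± 0.36, 2.33 ± 0.37 and 2.62 ± 0.36. The use of strand in counting is not given in the sources used here, so reads of Gm26672 and of the gamma genes opposite it cannot be told apart. Taf7, a general transcription factor gene between the beta and gamma clusters, was at 141 ± 1.92 CPM in MP8, 155 ± 2.48 CPM in Tas and 133 ± 5.92 CPM in Pph cells, against 144 ± 8.41 CPM in WT cells. It was called higher in Tas (log2 fold change 0.11 ± 0.04, edgeR adjusted p = 0.0271) and lower in Pph (-0.11 ± 0.04, 0.0204). In both its libraries overlapped WT, and DESeq2 did not call the Tas change.

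In the beta cluster, the highest TPM of any member was 0.60, for Pcdhb2 in Pph cells, so these genes were at low levels. Among those tested, mean counts per group ran from 5 for Pcdhb18 in WT to 29 for Pcdhb17 in Pph libraries. In Pph cells 3 of the 6 tested beta genes rose. This count is not independent of the filter on low counts, which a gene can pass through the group where it is high. Pcdhb18 averaged 14.7 counts in Pph, against 7 in MP8, 5 in Tas and 5 in WT libraries. Pcdhb2 averaged 20.3 counts in Pph, against 11 in MP8, 5.33 in Tas and 7.67 in WT libraries. Pcdhb18 was at 0.87, 0.60 and 0.812 CPM in the Pph libraries, against 0.23, 0.297 and 0.188 CPM in the WT libraries (log2 fold change 1.65 ± 0.43, edgeR adjusted p = 0.00169). Pcdhb2 was at 0.978, 1.10 and 1.07 CPM in the Pph libraries, against 0.23, 0.496 and 0.376 CPM in the WT libraries (1.51 ± 0.41, adjusted p = 0.00225). Neither gene's Pph libraries overlapped WT. Pcdhb17, with the highest TPM of the cluster in WT, rose by 1.07 ± 0.30 in Pph and by 0.82 ± 0.30 in Tas. Pcdhb22 rose by 0.81 ± 0.31 in Tas. Both Tas calls were lost with DESeq2 and without WT replicate 2 or 3 or Tas replicate 2, and that of Pcdhb22 also without Tas replicate 1 or without the filter on low counts. Between null groups, Pcdhb2 and Pcdhb18 were lower in Tas than in Pph by 1.94 ± 0.44 and 1.57 ± 0.43 on the log2 scale (adjusted p = 0.000333 and 0.00267), and Pcdhb2 by 2.72 without Tas replicate 3. Against MP8, the fold changes of MP8 over Pph were -0.89 ± 0.38 and -1.06 ± 0.41, and DESeq2 called neither; the Pcdhb18 call was also lost without the filter on low counts, and without any 1 of 5 libraries.

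Among the gamma genes, the A and B types, which have the variable promoters, were higher as a sum in all 3 null groups than in WT cells. The 19 A and B genes together averaged 96.9 ± 1.83 CPM in MP8, 63.2 ± 0.275 CPM in Tas and 82.8 ± 2.88 CPM in Pph cells, against 46.7 ± 1.29 CPM in WT cells. No 2 groups overlapped. The 3 C-type genes together averaged 52.9 ± 2.97 CPM in MP8, 42.0 ± 1.63 CPM in Tas and 45.8 ± 3.20 CPM in Pph cells, against 42.8 ± 0.509 CPM in WT cells. MP8 lay above WT without overlap (log2 ratio 0.30), while Tas and Pph overlapped WT. Scaled by library totals, Pph lay above WT as well. In TPM, Tas lay below WT without overlap, at 16.1 to 17.4 against 17.9 to 19.5 TPM. Pph averaged 17.9 TPM, against 18.6 TPM in WT, with overlap. The direction in Tas and Pph thus depended on the unit. The share of the gamma sum held by C-type genes was 35.3% ± 1.37 in MP8, 39.9% ± 0.995 in Tas and 35.6% ± 2.40 in Pph cells, against 47.9% ± 0.972 in WT cells, lower in each null library than in any WT library.

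**Figure D4:**
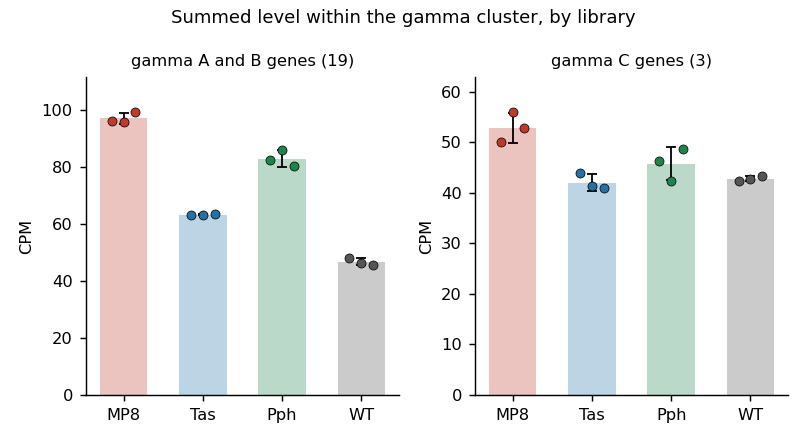
Summed CPM (vertical axes, from 0) of the 19 gamma A and B genes and of the 3 gamma C genes in the MP8, Tas, Pph and WT groups. Points are libraries, bars are means and whiskers are SD of 3 libraries. The A and B sums lie apart in the 4 groups, while the C sum lies above WT in MP8 and overlaps WT in Tas and Pph.

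Pcdhgb4 had the largest rise of the gamma genes. It was at 4.06, 4.84 and 4.28 CPM in the MP8 libraries, 2.01, 2.26 and 2.41 CPM in the Tas libraries and 2.29, 2.87 and 3.16 CPM in the Pph libraries, against 0.459, 1.01 and 0.291 CPM in the WT libraries. Its log2 fold change was 2.93 ± 0.26 in MP8 (edgeR adjusted p = 5.52e-11), 1.96 ± 0.29 in Tas (1.14e-06) and 2.26 ± 0.28 in Pph (4.55e-08), and 3.54, 2.57 and 2.88 without WT replicate 2. The MP8 libraries lay above those of Tas and Pph, with differences of 0.98 ± 0.21 and 0.67 ± 0.21 (adjusted p = 0.000242 and 0.00655).

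Pcdhgb8 and Pcdhgb5 rose in all 3 null groups by more than 1 on the log2 scale. Pcdhgb8 was at 4.72 ± 0.771 CPM in MP8, 3.63 ± 0.673 CPM in Tas and 4.45 ± 1.15 CPM in Pph cells, against 1.32 ± 0.27 CPM in WT cells, with log2 fold changes of 1.84 ± 0.22, 1.47 ± 0.22 and 1.75 ± 0.22. Pcdhgb5 was at 5.52 ± 1.16 CPM in MP8, 3.74 ± 0.155 CPM in Tas and 6.50 ± 1.10 CPM in Pph cells, against 1.85 ± 0.158 CPM in WT cells, with log2 fold changes of 1.59 ± 0.18, 1.03 ± 0.19 and 1.82 ± 0.18. In neither gene did a null library overlap WT.

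Among the A genes, Pcdhga1, the first gene of the cluster, rose to a similar level in the 3 null groups. It was at 7.37, 7.22 and 6.42 CPM in the MP8 libraries, 7.04, 7.51 and 6.89 CPM in the Tas libraries and 6.43, 6.46 and 6.37 CPM in the Pph libraries, against 3.26, 3.81 and 2.38 CPM in the WT libraries. The log2 fold changes were 1.15 ± 0.14, 1.19 ± 0.14 and 1.03 ± 0.14, and the 3 null groups were not called against each other. For Pcdhga4 the rise was 1.47 ± 0.26 for MP8, 1.00 ± 0.27 for Tas and 1.39 ± 0.26 for Pph. Pcdhga3 rose by 1.65 ± 0.17 in MP8 and 1.46 ± 0.18 in Pph, and by 0.56 ± 0.19 in Tas. It was lower in Tas than in both other null groups, with fold changes of 1.09 ± 0.16 for MP8 over Tas and -0.89 ± 0.17 for Tas over Pph, and its Tas call against WT was lost without Tas replicate 3 or WT replicate 2. In the deposited TPM, a comparison added after the data were seen, Pcdhga3 was at 0.54 TPM in MP8, 0.397 TPM in Tas and 0.397 TPM in Pph cells, against 0.317 TPM in WT cells, so Tas and Pph were equal and Pph over WT was 1.25 against 2.73 in CPM. Its counts and TPM corresponded to lengths between 7482 and 24480 bases, where 4720 are listed. Pcdhga11 rose by 0.87 ± 0.10 in MP8, 0.64 ± 0.11 in Pph and 0.31 ± 0.11 in Tas, where its libraries overlapped WT and the call was lost without Tas replicate 1 or WT replicate 1.

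Other A and B genes rose in MP8 and Pph and were not called in Tas. Pcdhga8 was at 3.16 ± 0.426 CPM in MP8, 2.14 ± 0.64 CPM in Tas and 4.71 ± 0.663 CPM in Pph cells, against 1.42 ± 0.686 CPM in WT cells, with log2 fold changes of 1.14 ± 0.28 in MP8 and 1.72 ± 0.26 in Pph. Pcdhgb7 rose by 1.05 ± 0.15 and 0.95 ± 0.15, Pcdhgb2 by 0.87 ± 0.21 and 0.93 ± 0.21, and Pcdhga12 by 1.00 ± 0.10 and 0.54 ± 0.10, in MP8 and in Pph. The difference between MP8 and Tas was itself past the threshold for Pcdhga12, Pcdhgb2 and Pcdhgb7, with log2 fold changes of MP8 over Tas of 0.76 ± 0.10, 1.20 ± 0.22 and 0.70 ± 0.15. Pcdhga8 was not called in that comparison. It was called lower than in Pph in both, with ratios of mean CPM of 0.67 for MP8 and 0.45 for Tas. Pcdhga10 rose in MP8, at 5.21 ± 1.37 CPM against 3.05 ± 0.435 CPM in WT cells, and was at 2.60 ± 0.764 CPM in Pph cells, with a log2 fold change of 1.01 ± 0.21 for MP8 over Pph. Smaller rises were those of Pcdhga7 in MP8 (0.57 ± 0.24) and of Pcdhga5 and Pcdhga9 in Pph (0.87 ± 0.27 and 0.73 ± 0.28), and DESeq2 did not call Pcdhga7 or Pcdhga9. The 4 tested members called in no null group were Pcdha4, Pcdhb3, Pcdhb14 and Pcdhga6.

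Pcdhgb1 and Pcdhga2 each fell in 1 null group. Pcdhgb1 had 16.3, 12.7 and 39.98 counts in the MP8 libraries, 1.22, 0 and 0.53 in the Tas libraries and 9.96, 10.9 and 9.55 in the Pph libraries, against 15.1, 3.79 and 13.98 in the WT libraries. All Tas libraries lay below the others, and the ratio of summed CPM in Tas over WT was 0.0637 (95% exact counting interval 0.0074 to 0.249; edgeR adjusted p = 0.000305). Its rise of 1.17 ± 0.42 in MP8 was lost with DESeq2, without MP8 replicate 3 (0.55) and without WT replicate 2 (0.80). Pcdhga2 was at 0, 0.851 and 0.124 CPM in the Pph libraries, against 0.684, 1.37 and 2.03 CPM in the WT libraries. These overlapped, and the fall in Pph of 2.05 ± 0.73 on the log2 scale (edgeR adjusted p = 0.0357) was lost when only the 2 groups were fitted and without any 1 of 6 libraries. With 1 library left out its log2 fold change ran between -1.50 (without Pph replicate 1) and -4.54 (without Pph replicate 2). Pcdhgb6 fell by 0.56 ± 0.23 in Tas, a call that DESeq2 did not make (adjusted p = 0.0981).

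The C-type gamma genes moved in different directions. Pcdhgc3 had the highest TPM of the gamma genes in each group, at 13.4 ± 0.55 TPM in MP8, 9.82 ± 0.493 TPM in Tas and 11.8 ± 0.974 TPM in Pph cells, against 10.5 ± 0.279 TPM in WT cells. In CPM it was at 36.4, 41.7 and 39.6 in the MP8 libraries, 31.0, 30.7 and 29.4 in the Tas libraries and 36.0, 32.5 and 34.7 in the Pph libraries, against 29.9, 28.9 and 29.3 in the WT libraries. It rose by 0.41 ± 0.06 on the log2 scale in MP8 and by 0.23 ± 0.06 in Pph (edgeR adjusted p = 4.51e-07 and 0.00191), and was not called in Tas (0.04). Pcdhgc4, a gene needed for neuron survival in the mouse, was at 10.5, 12.04 and 10.4 CPM in the MP8 libraries, 8.997, 8.29 and 9.35 CPM in the Tas libraries and 6.82, 5.97 and 8.31 CPM in the Pph libraries, against 10.5, 10.8 and 12.2 CPM in the WT libraries. It fell by 0.67 ± 0.11 in Pph (adjusted p = 8.78e-06) and by 0.33 ± 0.11 in Tas (0.0118), a call lost without Tas replicate 2 or WT replicate 3. Its log2 fold change in MP8 was -0.02. The counts and TPM of Pcdhgc4 corresponded to about 2252 bases (2183 to 2364 over 12 libraries), where 5024 are listed. The shortest of its 3 transcripts in GENCODE M21 has 2272 bases. Pcdhgc5 rose by 0.93 ± 0.24 in Pph cells and was not called against WT in MP8 or Tas. It was higher in Pph than in both, with log2 fold changes of -0.69 ± 0.23 and -0.64 ± 0.23 for MP8 and Tas over Pph. In the deposited TPM it was at 1.08 in MP8, 1.24 in Tas and 1.32 in Pph cells, against 1.12 in WT cells, so that Pph over WT was 1.18 against 1.90 in CPM, and its counts and TPM corresponded to lengths between 1330 and 5461 bases. Of the calls against WT, those of Pcdhga3 in MP8 and Pph and of Pcdhgc5 in Pph moved by over 1.5 times between CPM and TPM.

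Between null groups, 14 members were higher in MP8 than in Tas and 0 were lower, where 27.7% of all tested genes were higher and 28.4% lower. At an unadjusted p under 0.05 edgeR had 0 lower, DESeq2 called 0, and without MP8 replicate 1 there was 1. In MP8 against Pph, 11 members were higher and 4 lower, where 27.4% and 31.4% of all tested genes were. In Tas against Pph, 4 members were higher and 14 lower, where 28.5% and 29.3% of all tested genes were. Of the 22 gamma genes, 13 were higher in MP8 than in Tas and 12 were lower in Tas than in Pph, and 10 were both. Another 3, Pcdhga2, Pcdhga7 and Pcdhgc4, were higher in Tas than in Pph. The share of all tested genes called both higher in MP8 than in Tas and lower in Tas than in Pph was not computed. Both comparisons also use the same Tas libraries, so their calls are not independent. The joint count of 10 therefore stands without a background.

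Genes known to act on the clusters changed by less than 1 on the log2 scale, apart from Wiz and Dnmt3l in Pph cells. Of 11 CTCF and cohesin genes, 3 rose and 4 fell in MP8, 7 rose and 2 fell in Tas, and 3 rose and 5 fell in Pph. Ctcf rose by 0.34 in Tas and fell by 0.27 in Pph, with a log2 fold change of 0.06 in MP8, and Wapl, which releases cohesin from DNA, fell by 0.36, 0.17 and 0.25. Of 15 silencing factors, 5 rose and 7 fell in MP8, 10 rose and 3 fell in Tas, and 2 rose and 9 fell in Pph. Wiz, a zinc finger partner of the H3K9 methyltransferases G9a and GLP, rose in MP8 and Tas, by 0.96 and 0.43, and fell by 2.18 in Pph. Dnmt3b, a de novo DNA methyltransferase, fell in the 3 null groups, by 0.43 for MP8, 0.76 for Tas and 0.48 for Pph, and Dnmt3l, its cofactor, fell by 1.05 in Pph and rose by 0.64 in Tas.

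The intracellular partners and proteases of the protocadherins, 15 genes, had 5 higher and 5 lower in MP8, 7 higher and 2 lower in Tas, and 7 higher and 3 lower in Pph. Adam10, the protease that sheds protocadherin ectodomains, rose by 0.54, 0.17 and 0.38. The flanking genes, 21 tested, had 4 higher and 8 lower in MP8, 3 higher and 7 lower in Tas, and 4 higher and 9 lower in Pph, with median log2 fold changes of -0.09, -0.06 and -0.05. These counts stand beside the shares of all tested genes given above, 26.2% to 30.6% higher and 25.5% to 32.2% lower. Among the flanking genes, the largest called change was that of Pcdh1 in MP8 and in Tas, and that of Arap3 in Pph. The non-clustered protocadherins had 8 of 8 tested genes higher in MP8, 4 higher and 1 lower in Tas, and 7 higher in Pph. They lie elsewhere in the genome apart from Pcdh1 and Pcdh12 near the gamma cluster, which are also listed among the flanking genes. Their median log2 fold changes were 2.85 in MP8, 0.96 in Tas and 1.38 in Pph, above the 0.62, 0.28 and 0.89 of the clustered members. Their sum over 12 genes was 406 to 433 CPM in MP8, 224 to 232 CPM in Tas and 164 to 179 CPM in Pph, against 48.0 to 53.2 CPM in WT libraries. A rise was thus not particular to the clusters. The largest change of this list in each null group was that of Pcdh7, at 3.73 CPM in MP8, 1.81 CPM in Tas and 1.18 CPM in Pph cells against 0.127 CPM in WT cells.

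Markers of neurons and their progenitors, cells that express clustered protocadherins, moved in both directions. Of 15 tested, 9 rose and 4 fell in MP8, 6 rose and 3 fell in Tas, and 4 rose and 6 fell in Pph. Their summed level over 16 genes was 542 to 565 CPM in MP8, 645 to 659 CPM in Tas and 507 to 527 CPM in Pph, against 511 to 525 CPM in WT libraries, and 0 of the 16 were at 0 in every library of a group. Elavl4, a neuronal RNA-binding protein gene, had the largest called change of the list in each null group and rose by 3.08, 2.70 and 1.67. The median log2 fold change over the 15 tested markers was 0.64 in MP8, 0.04 in Tas and 0.08 in Pph. Fibroblast markers, 9 tested, had 6 higher in MP8, 1 higher and 5 lower in Tas, and 7 higher and 1 lower in Pph, with summed levels of 1389 to 1480 CPM, 1554 to 1621 CPM and 1224 to 1276 CPM against 1125 to 1332 CPM in WT libraries, and Postn was at 0 in Tas and Lum at 0 in WT. Primitive endoderm markers, 6 tested, had 5 higher and 1 lower in MP8, 1 higher in Tas, and 4 higher in Pph, with summed levels of 340 to 351 CPM, 295 to 301 CPM and 453 to 462 CPM against 288 to 318 CPM in WT libraries. The marker counts stand beside shares of all tested genes of 26.2% to 30.6% higher and 25.5% to 32.2% lower over the 3 null groups. The part of these cell types in the protocadherin changes was not tested.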

How the data were processed

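GRCm39 and the tools HISAT2 2.1.0, RSEM, FastQC and DESeq 1.26.0 are named by the submitters' processing notes, with no role or order. The authors deposited 3 tables, each of 1 null group and WT, with expected counts (estimated reads per gene, not normalized) and TPM per library. Per the file headers the tables also hold the authors' fold change as a ratio, its log2 value and p-values, none of which is used here. WT values were identical in the 3 tables and entered once.

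The expected counts were rounded and entered edgeR 4.0.16 (R 4.3.3), with filterByExpr by group, TMM scaling and a single robust quasi-likelihood fit over 12 libraries, which left 8 residual degrees of freedom. Each of 6 comparisons was adjusted by Benjamini-Hochberg over 16840 genes, with a threshold of 0.05. The script was tested on simulated data. CPM used the effective library size. Cluster sums took all members unrounded and had no test. Levels of different genes were compared in TPM. Counts of 3 or fewer per library were read as at the limit of detection, and intervals cover counting error only.

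The members and lists were chosen with earlier results of these data known. Named were, per comparison with WT, the called members of largest change (up to 10), the C-type genes, the 3 members per cluster with the highest TPM in WT, up to 5 differences between null groups, and up to 3 genes per list; further names are marked as chosen later or are members. Exon sharing and order came from GENCODE M21 on GRCm38, not the build of the files, so no coordinates are given. Transcript lengths implied by counts and TPM were scaled on 17 single-transcript genes of the chromosome. Alternatives were other scalings, no filter, fewer groups, DESeq2 1.42.0, a replicate block, libraries left out, TPM, and the addition of Gm37013.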

Additional observations from a re-analysis of the deposited data

Results flagged for a closer look

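Pcdhgb1 differed between MP8 and Tas, with a fitted log2 difference of 4.89 (edgeR adjusted p = 8.41e-07). It was called higher in MP8 and lower in Tas relative to WT, and the difference itself was tested. The rise in MP8 over WT was lost with DESeq2 (adjusted p = 0.0601) and without MP8 replicate 3 (log2 fold change 0.55). Its counts were 16.3, 12.7 and 40.0 in the MP8 libraries and 1.22, 0 and 0.53 in the Tas libraries, so the fitted size depends on the prior count, and it was 4.27 without MP8 replicate 3. The ratio of summed CPM was 36.5 (95% exact counting interval 9.73 to 308).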

How the results depend on the processing

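Over the alternatives, 1256 of 1305 changes of named genes kept their direction and side of the threshold, 46 lost the threshold, 3 gained it and 0 turned. Of 174 cluster ratios 24 moved beyond the spread of the libraries, and of 816 counts of calls 28 moved by over 1.5 times. Members called lower numbered 1 in MP8 with no filter, 1 in Pph when only the groups compared were fitted, and for MP8 against Pph 1 with DESeq2 and 2 with RLE scaling. Flanking genes called higher with DESeq2 numbered 1 in Tas and 2 in Pph. In TPM the alpha ratios over WT were 4.08 (MP8), 3.80 (Tas) and 3.14 (Pph), the beta ratio was 1.17 in Pph and -0.88 for Tas over Pph, and the gamma ratios were 0.67, 0.16 and 0.47 over WT and -0.31 for Tas over Pph. By library totals the gamma ratios were 0.78 in MP8, 0.57 in Pph, 0.56 for MP8 over Tas and -0.35 for Tas over Pph, and by DESeq2 size factors 0.50 in Pph and 0.26 for MP8 over Pph. With Gm37013 added, the alpha ratios were 3.81, 3.51 and 2.92 and the gamma ratios 1.19, 0.74 and 0.81, with 0.45 for MP8 over Tas, 0.39 for MP8 over Pph and -0.062 for Tas over Pph. Of 186 ratios of single tested members, 15 moved beyond the spread of the libraries in TPM, an alternative added after the data were seen. The cause of these shifts was not tested, except that TPM weights Pcdha6 by a short length.

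With 1 library left out, members called lower ranged from 0 to 1 in MP8, 1 to 4 in Pph, 0 to 1 for MP8 against Tas and 1 to 4 for MP8 against Pph, and members higher in Tas than in Pph from 2 to 4. Cohesin genes lower in Pph ranged from 3 to 6, partners higher in Tas from 4 to 7 and flanking genes higher in Tas from 1 to 3. Same-numbered libraries did not deviate together (correlation -0.259 to 0.134 over 18 pairs, and 3 of the 12 libraries correlated best with their own number). With the replicate number as a block, 17 members were higher in MP8, 11 in Tas and 19 in Pph. Depth limits the alpha and beta genes, 27 of which were not tested.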
